A study of Mus musculus with 9 samples.

Results

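The cholesterol and fatty acid synthesis genes examined here were 29 genes, picked by symbol from the 25239 gene symbols counted in the RNA-seq libraries of *Rbbp4* mutant mouse embryonic stem cells (ESCs). *Rbbp4* encodes a histone-binding WD40-repeat protein that is a subunit of several chromatin complexes, among them PRC2 and the NuRD histone deacetylase complex. All libraries came from E14 ESCs of the strain given as 12910la, grown with serum and leukemia inhibitory factor. The control line was Rbbp4+/+. The *Rbbp4* Ins/Ins line carried an in-frame insertion on both alleles, which exchanged a residue and added a cysteine. The *Rbbp4* Ins/Del line carried the same insertion on one allele and an in-frame deletion of several residues on the other. Each mutant line was a single CRISPR-Cas9 clone, so the effect of a mutation and that of a clone cannot be told apart. Each line had 3 libraries, and 9 were compared in all. The labels do not say that the libraries of a line came from separate cultures, so the p-values measure only the spread between these libraries.

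Cells make cholesterol from acetyl-CoA through mevalonate, isoprenoid units, squalene, and lanosterol. Fatty acids come from the same acetyl-CoA through malonyl-CoA, and are then lengthened by elongases and given double bonds by desaturases. Most enzymes of both branches are target genes of the sterol regulatory element-binding proteins, SREBPs, which are held in the endoplasmic reticulum by INSIG proteins when sterols are plentiful and are released to the nucleus when sterols run low. Of the 29 genes, 21 belonged to the sterol branch, namely 7 of the mevalonate and isoprenoid steps, 3 between squalene and lanosterol, 8 between lanosterol and cholesterol, and 3 that sense or carry sterols. The other 8 made up the fatty acid branch, with 4 genes of synthesis and elongation and 4 desaturases. All 29 genes passed the filter on low counts. They were spread over 15 chromosomes.

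The promoters of these genes were searched for short motifs, and none of the motifs was found in all of them. RefSeq promoters on GRCm38.p6 were matched for 22 of the 29 genes, and *Sqle*, *Scd2*, *Fdft1*, *Fads1*, *Fdps*, *Stard4*, and *Scd1* were not matched. The 250 bases before each start were searched on both strands for 4 motifs written as plain letters. CCAAT, the box bound by the NF-Y factor that acts beside SREBPs, was found in 17 of the 22 promoters, or 77.3%, and in 37.5% of the promoters of all 27025 genes in the table. It was found in 8 of 8 genes between lanosterol and cholesterol, in 5 of 6 matched genes of the mevalonate and isoprenoid steps, and in 1 of 4 genes of fatty acid synthesis and elongation. GGGCGG, the GC box, was found in 18 promoters, or 81.8%, against 35.4% of all genes, but in 1 of 4 genes of fatty acid synthesis and elongation. CACGTG, the E-box, was found in 4 promoters, or 18.2%, against 6.86% of all genes. TCACNCCAC, a core of the sterol regulatory element, was found in 1 of the 22 promoters, that of *Hmgcs1*, and in 1.22% of all genes. The 27025 genes were not limited to genes with counts in these libraries. A match is a description of the letters in this window and not a bound site.

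Promoters of 4 genes are shown, because *Hmgcs1* of the sterol branch and *Fasn* of the fatty acid branch fell in both mutants, while *Ebp* and *Elovl6* rose in both. They are written 5′ to 3′ along the strand of the gene, and capitals mark TCACNCCAC or CCAAT on either strand, so that ATTGG is CCAAT on the other strand. *Hmgcs1* is at chr13:119690101-119690350 on the plus strand, *Fasn* at chr11:120824548-120824797 on the minus strand, and *Ebp* at chrX:8193513-8193762 on the minus strand, each as the 250 bases before the start. *Elovl6* is at chr3:129532136-129532354 on the plus strand, from base -250 to base -32, since an annotated exon begins after that.
Hmgcs1: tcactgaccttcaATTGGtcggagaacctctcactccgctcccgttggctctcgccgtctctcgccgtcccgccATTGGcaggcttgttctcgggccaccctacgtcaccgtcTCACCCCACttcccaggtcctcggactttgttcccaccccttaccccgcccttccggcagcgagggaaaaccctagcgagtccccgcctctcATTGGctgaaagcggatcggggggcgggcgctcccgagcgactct
Fasn: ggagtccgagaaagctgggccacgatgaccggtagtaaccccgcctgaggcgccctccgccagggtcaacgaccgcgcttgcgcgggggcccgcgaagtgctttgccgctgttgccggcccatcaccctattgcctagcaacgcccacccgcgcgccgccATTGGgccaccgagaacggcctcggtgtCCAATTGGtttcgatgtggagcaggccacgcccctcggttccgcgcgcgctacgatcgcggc
Ebp: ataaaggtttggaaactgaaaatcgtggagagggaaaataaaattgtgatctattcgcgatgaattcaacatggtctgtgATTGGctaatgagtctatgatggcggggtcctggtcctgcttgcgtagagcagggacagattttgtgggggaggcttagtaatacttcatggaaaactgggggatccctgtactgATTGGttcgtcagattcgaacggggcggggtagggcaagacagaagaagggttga
Elovl6: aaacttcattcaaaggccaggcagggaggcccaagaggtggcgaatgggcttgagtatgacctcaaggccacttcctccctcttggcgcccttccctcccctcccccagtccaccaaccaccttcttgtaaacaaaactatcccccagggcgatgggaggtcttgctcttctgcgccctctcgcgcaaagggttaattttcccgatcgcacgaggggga

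The *Hmgcs1* promoter held TCACCCCAC from base -137 to base -129 and 3 CCAAT boxes. *Fasn* also had 3 CCAAT boxes, and a pair of them overlapped. *Ebp*, which rose, had 2 CCAAT boxes, so their presence did not separate genes that rose from genes that fell. *Elovl6* had none of the 4 motifs in this window.

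Between 15838064 and 21366868 reads were counted per library, and the 29 genes held raw counts from 61, for *Tm7sf2*, to 12163, for *Fasn*. Counts were compared as normalized counts, which are counts scaled to a common library size. The mutated gene itself had normalized counts of 9932, 9965, and 10117 in control libraries, of 5485, 5551, and 5776 in Ins/Ins libraries, and of 10129, 10344, and 10603 in Ins/Del libraries. *Rbbp4* RNA was therefore lower in the Ins/Ins line by 0.84 ± 0.029 (SE) on the log2 scale, and the Ins/Del line differed from control by 0.05 ± 0.028, which did not pass the test (edgeR, adjusted p = 0.107). Insertions and deletions of whole codons leave the reading frame open, so this count checks the libraries only in part. Exons of *Rbbp4* overlap opposite-strand *Gm26722* and *Sync* over 9.1% and 8.94% of their length.

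To ask whether the lipid synthesis genes differed between each mutant and control, every gene was tested in 1 edgeR fit of the 9 libraries, with an adjusted p-value limit of 0.01 over 14125 tested genes. In the sterol branch more genes fell than rose in both mutants. In *Rbbp4* Ins/Ins ESCs, 11 of the 29 genes fell, 3 rose, and 15 did not pass the test. The same rule called 58.4% of all tested genes, 29.4% lower and 29% higher, and the members were lower in 37.9% and higher in 10.3%. In *Rbbp4* Ins/Del ESCs, 15 fell, 4 rose, and 10 did not pass, or 51.7% and 13.8%, where 62.5% of all tested genes were called, 31.9% lower and 30.6% higher. The median log2 fold change of the 29 genes was -0.13 in Ins/Ins and -0.18 in Ins/Del, while that of all tested genes was 0.0038 and -0.0107. The changes were small. None of the 29 genes reached 2-fold in either mutant, while 16.6% of all tested genes did in Ins/Ins and 19.2% in Ins/Del by size alone. For the 29 genes, standard errors ran from 0.028 to 0.150 on the log2 scale. Errors given after log2 fold changes are these standard errors. The 29 genes together took 0.303% to 0.3048% of the counts in control libraries, 0.2735% to 0.2743% in Ins/Ins libraries, and 0.2598% to 0.2718% in Ins/Del libraries.

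**Figure D1:**
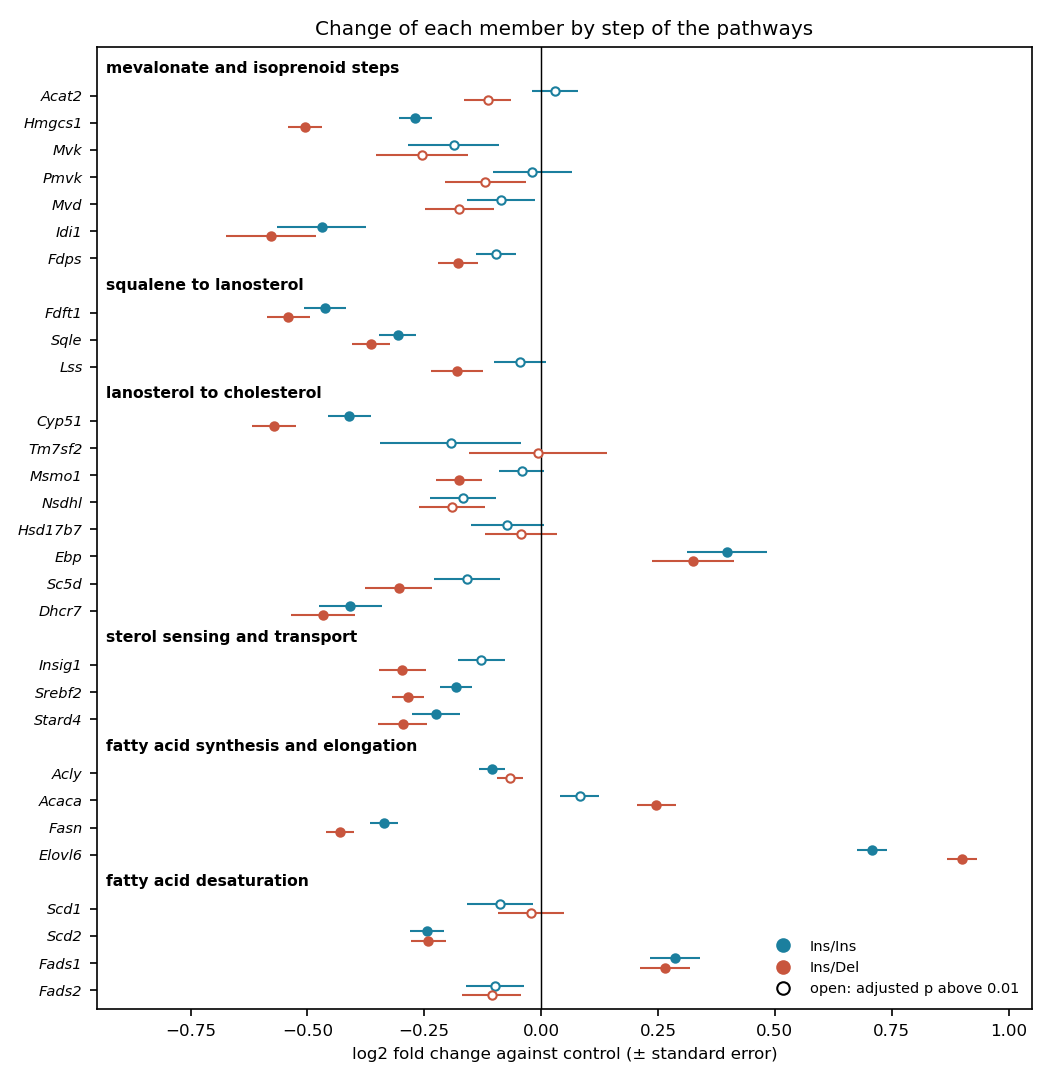
Log2 fold change of each of the 29 genes against control in the Ins/Ins and Ins/Del lines, ordered by pathway step, with bars of 1 standard error from the edgeR fit. Most sterol branch estimates lie below 0, *Ebp* lies above it at 0.40 and 0.32, and *Elovl6* has the highest values, 0.71 and 0.90.

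The genes that fell in both mutants numbered 10, and these were *Hmgcs1*, *Idi1*, *Fdft1*, *Sqle*, *Cyp51*, *Dhcr7*, *Srebf2*, *Stard4*, *Fasn*, and *Scd2*. Of all tested genes, 26.7% fell in both and 25.6% rose in both. *Ebp*, *Elovl6*, and *Fads1* rose in both. *Fdps*, *Lss*, *Msmo1*, *Sc5d*, and *Insig1* passed as lower in Ins/Del alone, *Acaca* passed as higher in Ins/Del alone, and *Acly* passed as lower in Ins/Ins alone. *Acat2*, *Mvk*, *Pmvk*, *Mvd*, *Tm7sf2*, *Nsdhl*, *Hsd17b7*, *Scd1*, and *Fads2* passed in neither. Both comparisons used the same 3 control libraries, so their calls are not independent. Every library of a mutant lay below every control library for 17 genes in Ins/Ins and 18 in Ins/Del, against 34.2% and 36.9% of all tested genes. The opposite held for 4 genes in each mutant, against 34.9% and 35.9%.

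The 7 genes of the mevalonate and isoprenoid steps had 2 members that fell in Ins/Ins and 3 that fell in Ins/Del, with none that rose. The lower calls were 28.6% and 42.9% of the 7, against 29.4% and 31.9% of all tested genes. *Hmgcs1* encodes the cytosolic HMG-CoA synthase, which condenses acetyl-CoA with acetoacetyl-CoA. Its normalized counts were 4281, 4242, and 4572 in control, 3560, 3734, and 3575 in Ins/Ins, and 3138, 2895, and 3204 in Ins/Del libraries. The 3 lines did not overlap, and Ins/Del was the lowest. *Hmgcs1* fell by 0.27 ± 0.035 on the log2 scale in Ins/Ins (edgeR, adjusted p = 1.93e-08) and by 0.50 ± 0.036 in Ins/Del (adjusted p = 1.72e-15). Its exons overlap the opposite-strand transcript *Gm48342* over 12.12% of their length, and the strand setting of the counting is not given in the sources used here.

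*Idi1* encodes the isomerase that turns isopentenyl diphosphate into dimethylallyl diphosphate. It had 271.0, 247.2, and 265.3 normalized counts in control, 183.0, 212.1, and 173.4 in Ins/Ins, and 190.1, 174.1, and 159.7 in Ins/Del libraries. Every mutant library was below every control library, while the mutants overlapped each other. Its exons overlap opposite-strand *Gm48574* over 9.22% of their length. Mean *Idi1* counts fell by 27.4% in Ins/Ins and fell by 33.1% in Ins/Del, or -0.47 ± 0.095 and -0.58 ± 0.096 on the log2 scale. *Fdps*, the farnesyl diphosphate synthase, fell in Ins/Del by 0.18 ± 0.043, and its value of -0.10 ± 0.043 in Ins/Ins had an adjusted p of 0.0433 in edgeR. *Fdps* shares 26.71% of its exonic length with *Gm43738* on the same strand, so its count is uncertain. The kinases *Mvk* and *Pmvk*, the decarboxylase *Mvd*, and the thiolase *Acat2* did not pass in either mutant, with log2 fold changes from -0.25 to 0.03 over the pair of comparisons. Near copies of *Acat2* could share its reads.

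Between squalene and lanosterol, 2 of 3 genes fell in Ins/Ins and 3 of 3 in Ins/Del. Of all tested genes, 29.4% and 31.9% fell. *Fdft1* encodes squalene synthase, the step that commits isoprenoids to sterols. Its normalized counts were 1323, 1265, and 1295 in control, 950.3, 971.6, and 898.6 in Ins/Ins, and 899.6, 871.6, and 902.5 in Ins/Del libraries. All mutant libraries lay below all control libraries. *Fdft1* fell by 0.46 ± 0.046 and by 0.54 ± 0.046. *Sqle*, the squalene epoxidase, fell by 0.31 ± 0.040 and 0.36 ± 0.040. *Lss*, the lanosterol synthase, fell by 0.18 ± 0.056 in Ins/Del (edgeR, adjusted p = 0.00441) and had -0.05 ± 0.055 in Ins/Ins, where the libraries overlapped the control. The *Lss* call in Ins/Del was lost without Ins/Del library 2, at -0.09, without control library 1, at -0.14, in DESeq2, at -0.17, and in a fit of only the groups compared, at -0.17.

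The *Fdft1* result stands in a chromosome region in which most genes were lower. *Fdft1* lies at chr14:63145150-63179578 on the minus strand of GRCm38, and the 10 tested genes on either side of it span 3.44 Mb. Of these 20 neighbours, 16 were lower and 2 higher in Ins/Ins, and 15 were lower and 2 higher in Ins/Del. Among all tested genes, 29.4% and 31.9% were lower and 29% and 30.6% higher. The median log2 fold change of the neighbours was -0.82 in Ins/Ins and -0.88 in Ins/Del, and 14 and 13 of the 20 had a more negative value than *Fdft1*. The lowest values were those of *Gata4* at -1.56 in Ins/Ins and *Tdh* at -1.47 in Ins/Del. The 2 genes that were higher were *Sox7*, at 1.63 and 2.22, and *Defb30*, for which no fold is given because its control mean was 0.361 normalized counts. A change of *Fdft1* with its neighbours and a change of *Fdft1* with its pathway cannot be told apart here. Its exons also overlap opposite-strand *Ctsb* over 18.31% of their length, and *Ctsb* was lower by 0.23 and 0.20. Without *Fdft1*, 10 of 28 genes fell in Ins/Ins and 14 in Ins/Del, and the medians were -0.12 and -0.18. These lower calls were 35.7% and 50% of the 28, against 29.4% and 31.9% of all tested genes.

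**Figure D2:**
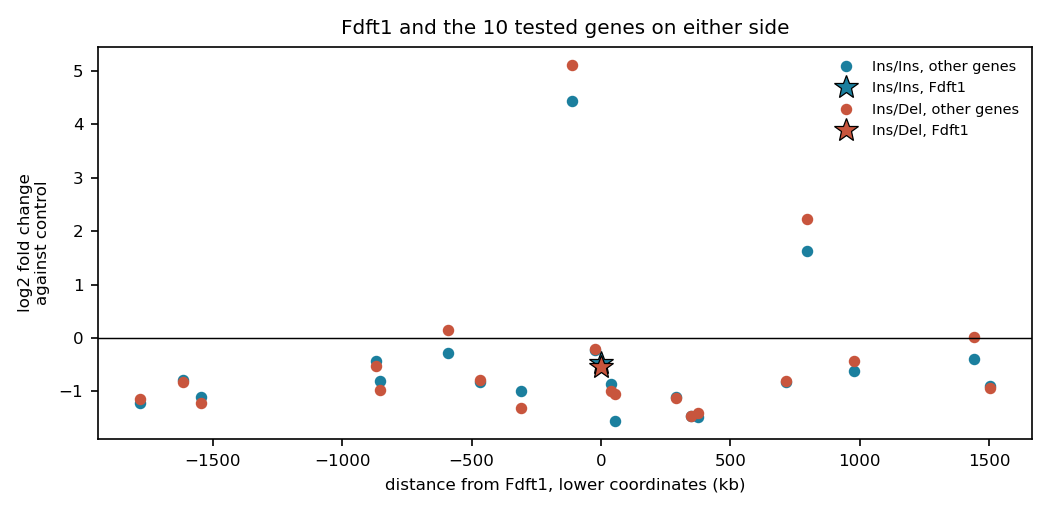
Log2 fold change against control of *Fdft1* and of the 10 tested genes on either side of it on chromosome 14, plotted by distance in kilobases, for both *Rbbp4* mutants. *Fdft1* at 0 kb lies above the neighbours' median of -0.82 in Ins/Ins and -0.88 in Ins/Del, *Sox7* lies at 1.63 and 2.22, and *Defb30*, the top point, has a fitted value that rests on a control mean of 0.361 normalized counts.

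The 8 genes between lanosterol and cholesterol had 2 members that fell and 1 that rose in Ins/Ins. In Ins/Del, 4 fell and 1 rose. The lower calls were 25% and 50% of the 8, against 29.4% and 31.9% of all tested genes. *Cyp51* encodes the sterol 14-alpha-demethylase, which acts on lanosterol. It had 1466, 1663, and 1572 normalized counts in control, 1145, 1214, and 1177 in Ins/Ins, and 1021, 1036, and 1105 in Ins/Del libraries. The lines did not overlap, and *Cyp51* shares 3.76% of its exonic length with opposite-strand *Akap9*. The fall was 0.41 ± 0.046 in Ins/Ins (edgeR, adjusted p = 5.61e-10) and 0.57 ± 0.047 in Ins/Del (adjusted p = 1.16e-13) on the log2 scale. *Dhcr7*, the reductase that completes cholesterol, fell by 0.41 ± 0.067 and 0.47 ± 0.068. *Sc5d*, the lathosterol desaturase, fell by 0.30 ± 0.072 in Ins/Del, and had -0.16 ± 0.071 with an edgeR adjusted p of 0.0457 in Ins/Ins, although all its Ins/Ins libraries were below all control libraries. *Msmo1*, a C4-methylsterol oxidase, fell by 0.18 ± 0.049 in Ins/Del and overlapped the control in Ins/Ins. Its Ins/Del call was lost without Ins/Del library 2, at -0.12, and without control library 3, at -0.15.

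*Ebp* went the other way. It encodes the sterol isomerase that moves the double bond in the B ring, and its mean rose from 225.6 ± 15.2 (SD, n = 3) normalized counts in control to 297.2 ± 18.2 in Ins/Ins and 282.9 ± 19.7 in Ins/Del. The rise was 0.40 ± 0.086 and 0.32 ± 0.087 on the log2 scale, with edgeR adjusted p-values of 0.00011 and 0.00117, and no mutant library overlapped a control library. The Ins/Del call was lost without Ins/Del library 1, at 0.27. *Nsdhl*, which acts with *Msmo1* in removing methyl groups, had every mutant library below every control library but did not pass, at -0.17 ± 0.070 and -0.19 ± 0.071. *Hsd17b7*, the 3-ketosteroid reductase of that complex, had -0.07 ± 0.078 and -0.04 ± 0.078. *Tm7sf2*, a sterol 14-reductase, had the fewest counts and the widest error, at -0.19 ± 0.150 and -0.01 ± 0.147. It shares 12.08% of its exonic length with *Vps51* on the same strand.

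Of the 3 sensing and transport genes, 2 fell in Ins/Ins and 3 fell in Ins/Del, against 29.4% and 31.9% of all tested genes. *Srebf2* encodes SREBP2, the SREBP that acts mainly on sterol genes and on its own gene. Its normalized counts were 3729, 3595, and 3487 in control, 3245, 3111, and 3175 in Ins/Ins, and 3070, 2877, and 2940 in Ins/Del libraries. No libraries of different lines overlapped, and *Srebf2* fell by 0.18 ± 0.034 in Ins/Ins (edgeR, adjusted p = 1.13e-05) and 0.28 ± 0.034 in Ins/Del (adjusted p = 1.77e-09). *Insig1* encodes the retention protein that is itself an SREBP target. It had 1180, 1112, and 1279 normalized counts in control, 1112, 1078, and 1073 in Ins/Ins, and 1012, 914.9, and 982.3 in Ins/Del libraries. The highest Ins/Ins library and the lowest control library both read 1112 when rounded, although the unrounded values did not overlap. *Insig1* fell by 0.30 ± 0.050 in Ins/Del, and its value of -0.13 ± 0.050 in Ins/Ins did not pass (edgeR, adjusted p = 0.0222).

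*Stard4* encodes a cytosolic cholesterol transfer protein. It had 1011, 1016, and 1097 normalized counts in control, 822.9, 941.1, and 915.5 in Ins/Ins, and 862.8, 835.5, and 843.5 in Ins/Del libraries. All mutant libraries were lower than all control libraries, and *Stard4* fell by 0.22 ± 0.052 and 0.30 ± 0.052. Without Ins/Ins library 1, the lowest of its line, the Ins/Ins value was -0.15 and the call was lost. Over all 21 sterol genes, 8 fell and 1 rose in Ins/Ins with a median of -0.17. In Ins/Del, 13 fell and 1 rose with a median of -0.25. Lower calls were thus 38.1% and 61.9% of the 21, against 29.4% and 31.9% of all tested genes. Higher calls were 4.76% in each mutant, against 29% and 30.6%. Estimates were below 0 for 19 and 20 of the 21, and for 6992 and 7209 of the 14125 tested genes.

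**Figure D3:**
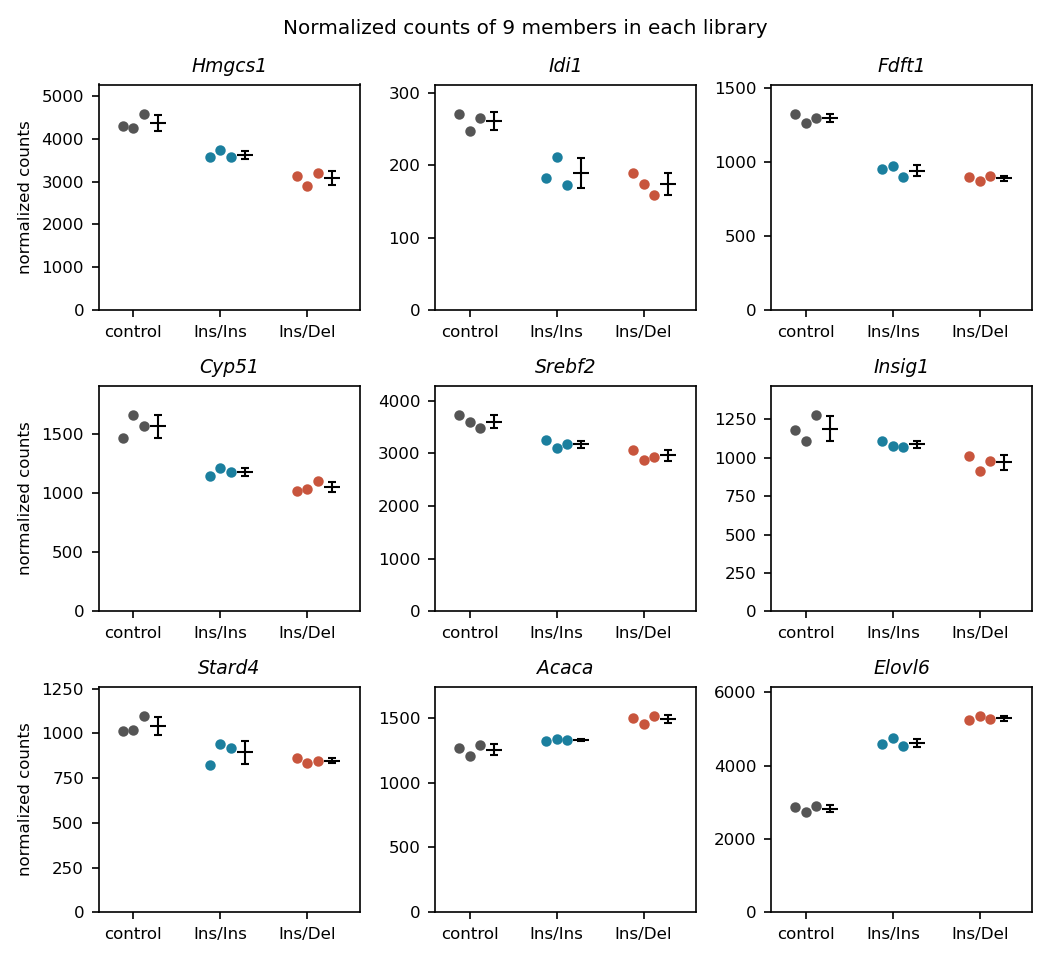
Normalized counts in each of the 3 libraries of the control, Ins/Ins, and Ins/Del lines for 9 genes, with a bar at the mean of each line. The mutant libraries lie below the control libraries for *Hmgcs1*, *Idi1*, *Fdft1*, *Cyp51*, *Srebf2*, and *Stard4*, and above them for *Elovl6* and *Acaca*.

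Of the 8 fatty acid genes, 3 fell and 2 rose in Ins/Ins, and 2 fell and 3 rose in Ins/Del. These 5 of 8 calls in each mutant are near the background shares of 58.4% and 62.5% of all tested genes, which were split about evenly. *Elovl6*, the elongase that lengthens palmitate to stearate, had the largest change of the 29 genes in both mutants. Its normalized counts were 2858, 2728, and 2900 in control, 4576, 4748, and 4541 in Ins/Ins, and 5228, 5350, and 5268 in Ins/Del libraries. The lines were far apart and did not overlap. *Elovl6* rose by 0.71 ± 0.032 on the log2 scale in Ins/Ins, which is 1.63-fold (edgeR, adjusted p = 1.56e-21), and by 0.90 ± 0.032 in Ins/Del, which is 1.87-fold (adjusted p = 3.74e-25).

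*Fasn*, the fatty acid synthase that makes the palmitate *Elovl6* uses, moved the opposite way. Its mean was 10312 ± 190 (SD, n = 3) normalized counts in control, 8165 ± 106 in Ins/Ins, and 7658 ± 349 in Ins/Del, with no overlap between mutant and control libraries. It fell by 0.34 ± 0.030 and 0.43 ± 0.030. *Acaca* encodes acetyl-CoA carboxylase 1, which makes malonyl-CoA. It had 1269, 1206, and 1286 normalized counts in control, 1322, 1335, and 1328 in Ins/Ins, and 1497, 1454, and 1513 in Ins/Del libraries. All mutant libraries were above all control libraries, and *Acaca* rose by 0.25 ± 0.042 in Ins/Del (edgeR, adjusted p = 2.29e-06), while its 0.08 ± 0.042 in Ins/Ins did not pass (adjusted p = 0.0813). *Acly*, the ATP citrate lyase that supplies cytosolic acetyl-CoA, fell by 0.10 ± 0.028 in Ins/Ins, a call that was lost without Ins/Ins library 1, at -0.07, and without control library 1, at -0.09. *Acly* had -0.07 ± 0.028 in Ins/Del.

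Among the desaturases, *Fads1* rose by 0.29 ± 0.053 and 0.26 ± 0.054. It encodes the delta-5 desaturase of polyunsaturated fatty acids. *Fads2*, the delta-6 desaturase next to it on the same chromosome, had -0.10 ± 0.063 and -0.11 ± 0.063 and overlapped the control in both mutants. *Scd2*, a stearoyl-CoA desaturase that makes monounsaturated fatty acids, fell by 0.24 ± 0.037 in each mutant. Its paralog *Scd1* had -0.09 ± 0.071 and -0.02 ± 0.071, and reads shared between near copies could be split between them.

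The 29 genes also differed widely in level. As length-corrected levels (counts per kilobase of exon and per 1000000 counts), the control means ran from 93.2 ± 1.54 (SD, n = 3) for *Acly*, 65.9 ± 1.23 for *Scd2*, 52.1 ± 2.15 for *Hmgcs1*, and 51.7 ± 0.954 for *Fasn* down to 1.11 ± 0.184 for *Tm7sf2*. *Hmgcs1* and *Fasn* did not differ beyond their spread. The genes that fell in both mutants were found at high levels, as with *Scd2*, and at low ones, as with *Idi1* at 4.09 ± 0.194.

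The direct comparison of the mutants asked which of the 29 genes differed between the alleles or clones. In *Rbbp4* Ins/Del against *Rbbp4* Ins/Ins, *Hmgcs1* was lower and *Acaca* and *Elovl6* were higher, and 26 genes did not pass. Of all tested genes, 10.8% were called, 4.64% lower and 6.17% higher, so 3 of 29 is near the background. The count of all genes called fell from 1527 to 988 without Ins/Del library 2 and to 1014 without Ins/Ins library 1. *Hmgcs1* was lower by 0.24 ± 0.037 on the log2 scale (edgeR, adjusted p = 6.88e-06). *Elovl6* was higher by 0.19 ± 0.031 (adjusted p = 1.09e-05), and *Acaca* by 0.16 ± 0.041 (adjusted p = 0.00416). The *Acaca* call was lost when any of the 3 Ins/Ins libraries, Ins/Del library 1, or Ins/Del library 3 was left out, with values from 0.15 to 0.17. In each of these 3 genes, the Ins/Del line lay farther from control than the Ins/Ins line did. *Cyp51*, at -0.16 ± 0.049, and *Insig1*, at -0.17 ± 0.051, had edgeR adjusted p-values of 0.0163 and 0.0162 and did not pass, although every Ins/Del library was below every Ins/Ins library. That held for 8 of the 29 genes and 16.7% of all tested genes, and the opposite for 3 genes and 17.4%. The 5 genes called lower in Ins/Del alone had direct differences from -0.08 to -0.17, and none passed, so their calls do not show that the mutants differ. The median over the 29 genes was -0.07.

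Other lipid genes, listed by role, were not uniformly lower. Of 11 tested regulators of the SREBP pathway, 3 rose and 4 fell in Ins/Ins and 3 rose and 5 fell in Ins/Del. Genes of SREBP escort and cleavage did not move together. *Scap*, the escort, rose by 0.30 and 0.37, and the protease gene *Mbtps1* rose by 0.12 and 0.11. *Mbtps2*, the other protease gene, fell by 0.42 and 0.64. *Srebf1* and *Insig2* passed in neither. Of 10 other sterol synthesis enzymes and partners, 5 rose and 2 fell in each mutant. Those that rose were *Pgrmc1*, *Por*, *Cyb5r3*, *Cyb5a*, and *Cyb5b*, most of which pass electrons to several enzyme families. Of 26 other fatty acid synthesis genes, 9 rose and 7 fell in Ins/Ins and 10 rose and 8 fell in Ins/Del, with medians of 0.0019 and 0.02. Of 24 fatty acid oxidation genes, 14 rose and 3 fell in each mutant, with medians of 0.31 and 0.32. Of all tested genes, 29% and 30.6% rose and 29.4% and 31.9% fell in Ins/Ins and Ins/Del.

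In sterol efflux, storage, esterification, and trafficking, 6 of 17 genes rose and 5 fell in Ins/Ins, and 5 rose and 6 fell in Ins/Del. Of these 17 genes, 5 passed 2-fold in both mutants, as did 2 of the 26 other fatty acid synthesis genes, 1 of the 24 oxidation genes, and 14.7% of all tested genes. *Soat1*, which esterifies cholesterol for storage, fell 3.30-fold and 3.83-fold. Its paralog *Soat2* rose from 11.91 to 17.1 normalized counts in control libraries to 38.06 to 39.5 in Ins/Ins and 37.03 to 53.16 in Ins/Del, a low level in all lines. *Abca1*, the cholesterol exporter, rose 2.47-fold and 2.81-fold. *Lipa*, the lysosomal acid lipase that frees cholesterol from esters, fell 2.55-fold and 3.15-fold, and the lipoprotein receptor gene *Vldlr* fell 2.02-fold and 2.54-fold. *Elovl7*, another elongase, rose 2.34-fold and 2.62-fold, while *Acsl4*, which activates polyunsaturated fatty acids, fell 2.75-fold and 2.89-fold. *Slc25a20*, the carnitine-acylcarnitine carrier of mitochondria, rose 3.73-fold and 4.76-fold, from 294.9 to 350.8 normalized counts in control libraries to 1201 to 1219 in Ins/Ins and 1513 to 1575 in Ins/Del.

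**Figure D4:**
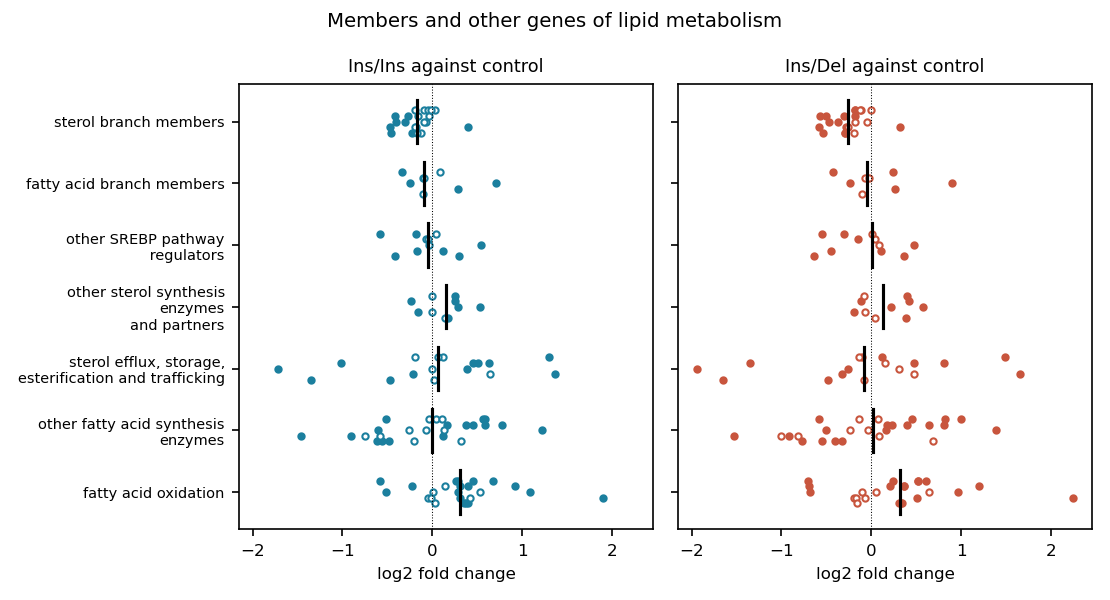
Log2 fold change against control of every tested gene of the 29 and of the other lipid gene lists, 1 row per list, for both *Rbbp4* mutants, with a bar at each list's median. Filled points passed the test and open points did not. The medians of the sterol branch lie below 0, that of fatty acid oxidation lies at 0.31 and 0.32, and the genes past 2-fold belong to lists other than the 29.

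Markers of the cells in the culture also differed between the lines. In Ins/Ins and Ins/Del, 29% and 30.6% of all tested genes rose and 29.4% and 31.9% fell. The 8 pluripotency markers summed to between 78606 and 83027 normalized counts in control libraries, 106736 to 108675 in Ins/Ins, and 104427 to 107700 in Ins/Del, so the label of stem cells was met in each line. Of these 8, 7 rose and 1 fell in Ins/Ins, and 6 rose and 2 did not pass in Ins/Del. *Pou5f1* was the marker that fell in Ins/Ins, at -0.12 on the log2 scale, and it did not pass in Ins/Del. The 8 fibroblast or feeder markers summed to 622.5 to 732.2 in control, 278.7 to 301.1 in Ins/Ins, and 354.7 to 387.6 in Ins/Del libraries, and 4 of 5 tested were lower in each mutant. *Col1a1* fell 16.4-fold and 11.7-fold and *Col1a2* fell 38.9-fold and 27.1-fold. The fifth, *Thy1*, rose from a mean of 45.7 to 245.7 and 311.6 normalized counts and made up most of the mutant sums. The 8 trophectoderm markers summed to 5039 to 5495, 2733 to 2913, and 1877 to 1929. *Krt8* and *Krt18* made up most of the control sums, with means of 1503 and 2091. Their means were 233.8 and 381.2 in Ins/Ins and 186.9 and 265.9 in Ins/Del. *Tfap2c* made up most of the mutant sums, with means of 1763 and 1086. Of 7 tested trophectoderm markers, 5 were lower in each mutant, though not the same 5. *Eomes* rose by 0.74 and 0.49 on the log2 scale. *Tfap2c* was higher in Ins/Ins, at 0.48, and lower in Ins/Del, at -0.21, and *Gata3* passed as lower in Ins/Ins alone. The 10 primitive endoderm markers summed to 2812 to 3077, 2645 to 2830, and 3811 to 3912. *Lama1* and *Col4a1* made up most of these sums, with control means of 1398 and 1139. Among 9 tested, 2 rose and 3 fell in Ins/Ins, while Ins/Del had 7 rises and 2 falls. The Ins/Ins shares, 22.2% and 33.3%, were near those of all tested genes. *Gata4*, at -1.56 and -1.05, and *Dab2*, at -1.35 and -1.29, fell in both mutants. *Sox7*, at 1.63 and 2.22, and *Cubn*, at 0.49 and 0.81, rose in both. *Gata4* and *Sox7* are also tested neighbours of *Fdft1* on chromosome 14. For these genes, a change with that region and a change of cell type cannot be told apart here. *Col4a1* fell by 0.31 in Ins/Ins but rose by 0.31 in Ins/Del. No marker was at 0 in all libraries of a line. The part of these differences in the changes of the lipid genes was not tested, and fewer cells of a type cannot be told apart from less RNA per cell.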

How the data were processed

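RNA was measured in 9 mouse ESC libraries, grouped by their genotype labels into control, *Rbbp4* Ins/Ins, and *Rbbp4* Ins/Del with 3 each. The authors made libraries from total RNA (Kapa mRNA HyperPrep), read them as 50 bp pairs, aligned them to mm10 with STAR 2.7.3, and counted them with HTSeq. The deposited values are whole-number counts per gene symbol with no normalization. The HTSeq version, annotation, and strand setting are not given in the sources used here, so counts of overlapping genes are uncertain. Of 25239 symbols, 20953 had a read. The authors' own test, per the study's methods, was DESeq2 1.22.2.

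All 9 libraries were fitted in edgeR 4.0.16 (R 4.3.3) with TMM factors, filterByExpr, and the quasi-likelihood test, and p-values were adjusted by Benjamini-Hochberg over 14125 genes with a limit of 0.01. Library sizes of 15838064 to 21366868 counts gave the 29 genes standard errors of 0.028 to 0.150 on the log2 scale. Standard errors were derived from the size of the log2 fold change and the F statistic. The fits were also run on simulated data in which both mutants had the same changes. That run held no difference between the mutants to detect, and its outcome is not reported here. Promoters came from RefSeq (GRCm38.p6) and positions, exon lengths, and overlaps from GENCODE M21. Tables and plots used Python 3.11.15, pandas 2.3.3, and matplotlib 3.10.9.

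The 29 genes, the other gene lists, and the rules were chosen with earlier results of these data known. Values in every library are given for genes past the limit with a log2 fold change of at least 0.5 in either mutant, genes past it in the direct comparison, and the 3 sensing and transport genes. Genes of other lists are named when past the limit and 2-fold in both mutants, and others that are named were chosen after their values were seen. Some genes of the lists are counted but not reported by name here. Alternatives were DESeq2 1.42.0, its size factors in edgeR, total counts, no filter, only the groups compared, a replicate block, each library left out, and a limit of 0.05. Replicate pairs differed by more than sampling noise, with 1.87 to 4.62 chi-square per gene.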

Additional observations from a re-analysis of the deposited data

Results flagged for a closer look

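The effects of the *Rbbp4* mutants differed by direct test in 3 of the 29 genes, a share near the 10.8% of all tested genes called in that comparison. In *Rbbp4* Ins/Del against *Rbbp4* Ins/Ins, the log2 difference was -0.24 for *Hmgcs1*, 0.16 for *Acaca*, and 0.19 for *Elovl6*, and in each gene the Ins/Del line was farther from control. The *Hmgcs1* and *Elovl6* calls held under all 16 alternatives tried, and the *Acaca* call was lost under 5 of them, each of which left out a library.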

How the results depend on the processing

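The 29 genes gave 87 results over 3 comparisons, and 57 kept their direction and their side of the limit under all 16 alternatives, as did 30 of the 36 calls. The calls that were lost in some setting were *Lss*, *Msmo1*, and *Ebp* in Ins/Del, *Stard4* and *Acly* in Ins/Ins, and *Acaca* between the mutants, with the values given above. The number of genes that fell ranged from 9 to 12 in Ins/Ins and from 13 to 16 in Ins/Del with a library left out, and from 11 to 15 and 14 to 20 under the other alternatives, with the highest counts at a limit of 0.05. The number that rose was 3 in Ins/Ins throughout, and 3 to 4 in Ins/Del. Between the mutants, 1 to 2 genes were higher and 1 to 2 lower with a library left out, 3 were lower with no filter on low counts and in a fit of only the groups compared, when *Cyp51* and *Insig1* passed, and 6 were lower at a limit of 0.05. Over all genes, 988 to 1646 differed between the mutants with a library left out, 1183 in DESeq2, and 2682 at a limit of 0.05, against 1527.

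Estimates that changed sign were near 0 and passed no test. *Tm7sf2* in Ins/Del was 0.0013 with DESeq2 size factors and 0.007 in a fit of only the groups compared. Between the mutants, *Scd2* was -0.0002 with no filter, and *Fads2* was 0.0034 in DESeq2 and 0.0038 with its size factors. With a library left out, values ran from -0.0829 to 0.0393 for *Pmvk* in Ins/Ins, and in Ins/Del from -0.1423 to 0.1145 for *Tm7sf2*, from -0.0678 to 0.0079 for *Hsd17b7*, and from -0.1281 to 0.1041 for *Scd1*. Between the mutants they ran from -0.0631 to 0.0330 for *Nsdhl*, from -0.1127 to 0.0502 for *Dhcr7*, from -0.0415 to 0.1909 for *Scd1*, from -0.0516 to 0.0631 for *Scd2*, from -0.0507 to 0.0031 for *Fads1*, and from -0.0563 to 0.0357 for *Fads2*.

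The labels do not say whether libraries with the same replicate number share more than that number. For pairs of libraries with the same number, deviations from the line means correlated at -0.0277 to 0.0559, against -0.0566 to 0.0619 for other pairs. For 4 of 9 libraries, the best correlation in each of the other lines was with their own number. A shared batch behind the numbers was not tested. With the replicate block, 11 genes fell and 3 rose in Ins/Ins, 15 fell and 4 rose in Ins/Del, and 8225 and 8795 of all genes were called. The cause of these shifts was not tested. Depth limits *Tm7sf2* most, with raw counts from 61 to 100.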
